A study of Mus musculus with 24 samples.

Results

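The genes described here are 5 transcription factors used as markers of the formative and primed epiblast. These are the states through which pluripotent cells pass between the naive state of the blastocyst and the start of gastrulation. The 5 genes are Otx2, Pou3f1, Foxd3, Zic2 and Zic5, chosen by name from 35591 genes in the count table and read in all 24 libraries. Poly(A) RNA was sequenced from 6 male lines of mouse embryonic stem cells (mESCs) on their way to becoming neuromesodermal progenitors (NMPs), from which spinal cord and trunk mesoderm arise. Of these lines, 3 were wild type (wt, Smchd1[fl/+], which carry an intact copy and a floxed copy) and 3 were heterozygous (het, Smchd1[del/+], in which the copy from the father was deleted). Each line was sampled on day 0, day 2, day 2.5 and day 3, giving 8 groups of 3 libraries, and the wt and het lines were compared to ask whether a single embryonic copy of Smchd1, a chromatin protein involved in gene silencing, alters expression when the oocyte had normal SMCHD1.

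All lines, wt included, came from Castaneus mothers and C57BL/6 fathers of the genotype Smchd1 del/fl with the MMTV-Cre transgene, so each is an F1 hybrid and each was derived from a separate blastocyst. Whether a line inherited the transgene is not given in the sources used here. The day 0 cells were in serum medium with LIF, a cytokine that holds mESCs undifferentiated. Before that, the lines were grown with LIF and inhibitors, CHIR99021 (used again from day 2) among them, and were moved to serum medium in steps. Cells for day 0 were seeded more densely than those for the later days. Cells were then moved to N2B27 medium with bFGF, sampled on day 2, and treated from day 2 with CHIR99021, which activates Wnt signalling, so that the day 2.5 sample was taken 12 h after Wnt activation and the day 3 sample later under the same treatment. A line thus contributes 4 libraries, 1 for each day, and equal line numbers in wt and het do not link lines.

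As background, naive mESCs that lose LIF pass through a formative state in which Otx2, a homeodomain factor, and Pou3f1, a POU-domain factor also called Oct6, help to move pluripotency factors to new enhancers. Foxd3 is a forkhead repressor that is needed for epiblast cells to persist and is used again in the neural crest. Zic2 and Zic5 are zinc finger factors of the epiblast and of the anterior neural plate, and Wnt and FGF signals in the caudal epiblast are known to turn cells away from the anterior fate in which Otx2 acts.

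Library totals were 7.10 to 20.8 M counts, with a median of 17.9 M, and the smallest was wt day 2.5 line 2. Levels are given as counts scaled to a common library size (CPM) with TMM composition factors, and 3 counts, taken as the smallest level that can be told from 0, equal 0.138 to 0.414 CPM per library; such floors cover counting error only. Within groups, log2 CPM of all genes correlated between libraries at 0.955 to 0.985 over 24 pairs, and 0 pairs were identical. Smchd1, the deleted gene, was at 142 CPM in wt and 94.4 CPM in het on day 0, and its 3 het libraries lay below its 3 wt libraries on each day, with a call by edgeR on days 2 and 3. The day 0 cells had the naive pluripotency genes of a list of 14 at a summed 1831 to 2072 CPM. They also had a list of 17 other formative and primed genes at a summed 2432 to 2832 CPM. The endoderm markers of a list of 19 were at 2980 to 4959 CPM in wt and 1803 to 2551 CPM in het. Wt line 1 stood apart on chromosome 8, where its median log2 ratio to the mean of the lines was 0.19, against -0.07 to 0.05 for every other pair of line and autosome. On chromosomes 4 and 14, which hold the 5 genes, these medians were -0.03 to 0.02 in all lines. In bulk RNA, fewer cells of a type and less RNA per cell cannot be told apart.

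Foxd3 (ENSMUSG00000067261, GRCm38 chromosome 4, 99656299 to 99658622, plus strand) is a gene of a single exon of 2324 bases and was the first of the 5 to fall. Its wt libraries on day 0 had 372, 235 and 212 counts, and its het libraries had 183, 204 and 173. On day 2 the counts were 17, 86 and 19 in wt and 53, 15 and 24 in het, so that every line had fallen, although wt line 2 kept more than the other lines. By day 2.5 the 6 libraries had 0 to 5 counts, and by day 3 the 3 wt libraries had 0 counts while the het libraries had 0, 3 and 4. In CPM, Foxd3 went from 17.5 ± 5.07 to 2.12 ± 2.13 in wt and from 11.5 ± 1.39 to 1.88 ± 1.17 in het between day 0 and day 2 (SD, n = 3). The wt level of day 3 was at least 105-fold lower than that of day 0, taking 3 counts in each day 3 library as the bound.

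The 250 bases upstream of the Foxd3 start are shown because this was the gene whose level came closest to 0 (RefSeq, GRCm38.p6, chr4:99656049-99656298, plus strand).
Foxd3: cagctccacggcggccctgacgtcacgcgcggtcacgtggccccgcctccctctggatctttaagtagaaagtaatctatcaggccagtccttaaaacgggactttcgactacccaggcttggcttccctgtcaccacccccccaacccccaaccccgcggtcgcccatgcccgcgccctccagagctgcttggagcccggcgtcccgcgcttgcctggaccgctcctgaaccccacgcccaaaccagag
Their GC content was 65.6%, higher than in 83.8% of the 32851 mouse promoter windows of that length, and their ratio of observed to expected CpG was 0.854, against a median of 0.374 over all windows. A search of both strands for the TCF/LEF core CTTTGA, the octamer ATGCAAAT that POU factors bind, the OTX core TAATCC and the letters TATAAA of the TATA box found no match in this window. These 4 motifs occurred in 13.8%, 1.60%, 6.25% and 12.4% of all windows, and no window described here held more than 1 match.

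Otx2 (ENSMUSG00000021848, chromosome 14, 48657677 to 48673819, minus strand) was kept up to day 2 and then fell steeply within 12 h. Its day 0 levels were 54.5, 71.7 and 55.4 CPM in wt and 63.3, 52.8 and 55.2 CPM in het. On day 2 they were 78.3, 66.1 and 53.0 CPM in wt and 84.2, 69.3 and 67.2 CPM in het, which overlapped the day 0 values in wt and lay above them in het. On day 2.5 the wt lines were at 6.49, 5.11 and 6.48 CPM and the het lines at 6.98, 6.89 and 5.05 CPM, far under any library of day 2. On day 3 the wt lines were at 4.78, 1.20 and 3.29 CPM, and the het lines at 3.79, 10.4 and 3.15 CPM, with het line 2 above all others. The exons of Otx2 overlap those of Otx2os1 on the other strand, which had at most 15 counts in any library, and those of Gm49154 on the same strand, which had at most 13.

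RefSeq lists 4 starts for Otx2, and the counts per gene do not tell them apart. A pair of the upstream windows is shown because they hold the matches found, with the matched letters in capitals (GRCm38.p6, minus strand, chr14:48667645-48667894 for the first and chr14:48665110-48665359 for the second).
Otx2 first window: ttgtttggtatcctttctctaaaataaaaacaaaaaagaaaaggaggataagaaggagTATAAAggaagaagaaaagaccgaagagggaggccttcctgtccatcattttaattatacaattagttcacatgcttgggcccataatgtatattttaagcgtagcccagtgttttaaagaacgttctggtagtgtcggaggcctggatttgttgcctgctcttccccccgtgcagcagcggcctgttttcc
Otx2 second window: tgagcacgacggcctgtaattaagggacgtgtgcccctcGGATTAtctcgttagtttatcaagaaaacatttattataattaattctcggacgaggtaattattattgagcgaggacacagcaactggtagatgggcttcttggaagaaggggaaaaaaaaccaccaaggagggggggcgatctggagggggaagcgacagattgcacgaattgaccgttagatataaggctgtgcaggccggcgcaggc
In the first window the capitals mark the letters TATAAA, which begin 192 bases before the start, farther upstream than a TATA box lies. In the second they mark the OTX core read on the opposite strand, which begins 211 bases before the start. Such matches describe the letters and are no evidence of a site.

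Pou3f1 (ENSMUSG00000090125, chromosome 4, 124656807 to 124660655, plus strand, 1 exon) rose modestly and then fell with Otx2. Its wt lines had 718, 611 and 498 counts on day 0 and 1006, 1249 and 997 on day 2, followed by 129, 35 and 106 on day 2.5 and 91, 74 and 132 on day 3. Its het lines had 700, 440 and 627 counts on day 0, 987, 816 and 804 on day 2, 140, 148 and 134 on day 2.5, and 177, 294 and 246 on day 3. In wt the levels of days 2.5 and 3 overlapped, at 4.83 to 7.09 and 4.18 to 8.04 CPM, whereas in het the 3 libraries of day 3 (9.06, 13.9 and 12.1 CPM) lay above the 3 of day 2.5 (6.88, 7.72 and 6.76 CPM). Of its 75-base stretches, 93.2% occur in no other annotated gene, and the rest are shared with Gm2164, which overlaps its exon on the other strand and had at most 3 counts.

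Zic2 (ENSMUSG00000061524, chromosome 14, 122475435 to 122479852, plus strand) and Zic5 (ENSMUSG00000041703, chromosome 14, 122456795 to 122465677, minus strand) are neighbours that are read in opposite directions from starts 9.76 kb apart. Both genes had their highest levels on day 2, at 194% of the day 0 level for Zic2 and 172% for Zic5 in wt, and were far lower on day 2.5. Zic2 was at 65.6, 47.8 and 45.9 CPM in wt and 56.4, 45.6 and 55.8 CPM in het on day 0, and at 113, 106 and 90.1 CPM in wt and 110.1, 107 and 103 CPM in het on day 2. On day 2.5 it was at 22.2, 26.2 and 21.6 CPM in wt and 24.2, 23.2 and 26.6 CPM in het, and on day 3 at 25.4, 18.7 and 26.0 CPM in wt and 29.6, 38.2 and 33.5 CPM in het. No library of day 2 overlapped one of any other day for Zic2.

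Zic5 was at 52.6 ± 2.85 CPM in wt and 54.2 ± 2.18 CPM in het on day 0, and at 90.6 ± 13.1 and 99.1 ± 5.80 CPM on day 2 (SD, n = 3). On day 2.5 it was at 21.6 ± 4.88 and 22.3 ± 0.246 CPM, and on day 3 at 23.4 ± 3.11 and 30.2 ± 3.08 CPM in wt and het (SD, n = 3). Of its 75-base stretches, 95.8% were found in no other gene, and the remainder matched Gm12241. The upstream window of Zic5 is shown because it belongs to the divergent pair (RefSeq, GRCm38.p6, chr14:122465659-122465908, minus strand), and it held none of the 4 motifs.
Zic5: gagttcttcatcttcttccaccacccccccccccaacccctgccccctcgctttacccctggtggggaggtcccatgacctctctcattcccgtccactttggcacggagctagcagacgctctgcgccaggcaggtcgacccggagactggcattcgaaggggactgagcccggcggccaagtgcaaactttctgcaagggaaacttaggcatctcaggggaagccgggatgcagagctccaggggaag
Between the starts lies 2610035F20Rik, a transcript on the strand of Zic5, which had 2 to 141 counts and was at 5.0 CPM in wt on day 0 and 0.758 CPM in wt on day 3.

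**Figure D1:**
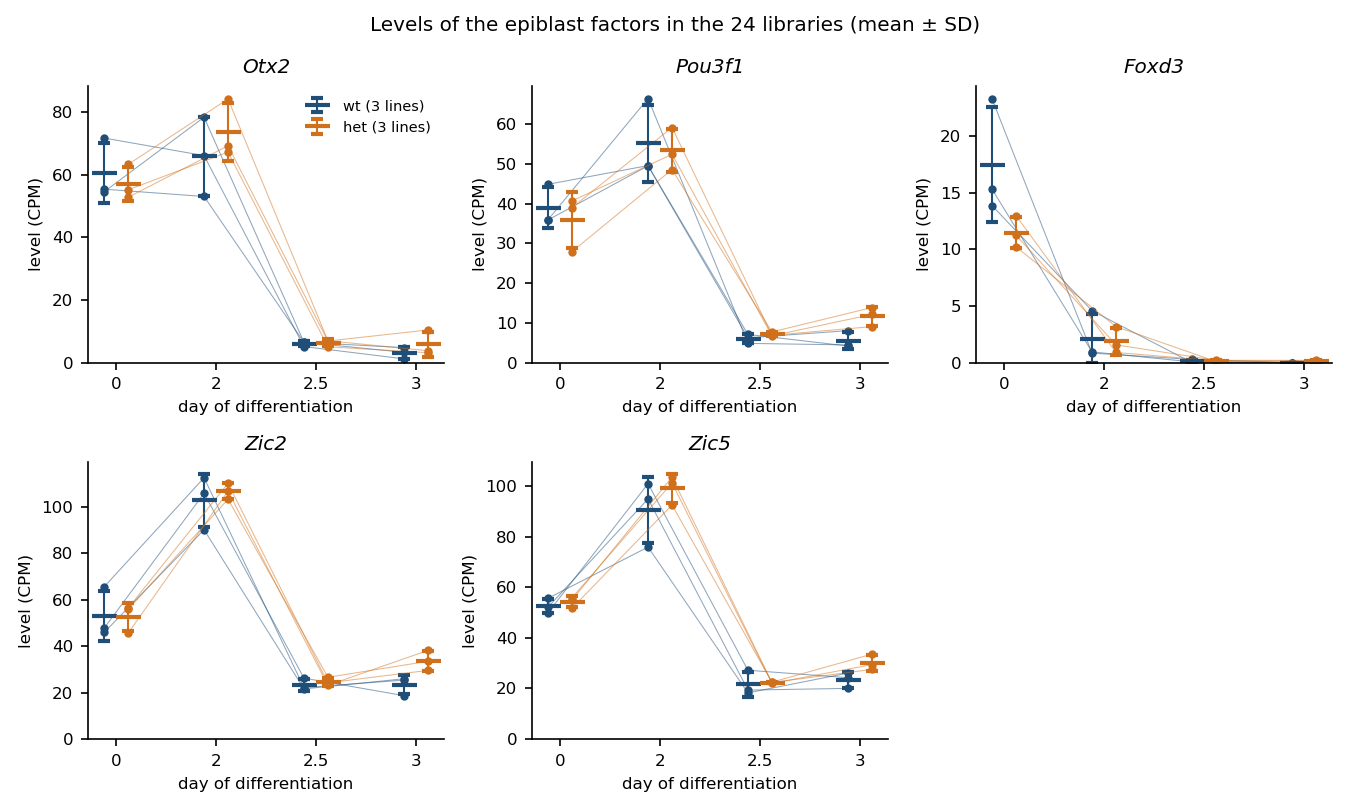
Level of each factor in CPM (vertical axis, linear, from 0) on days 0, 2, 2.5 and 3 (evenly spaced on the horizontal axis). Points are libraries, thin lines join the libraries of a line, and wide bars with whiskers are the mean ± SD of 3 lines in wt (blue) or het (orange). Foxd3 drops between day 0 and day 2, whereas Otx2, Pou3f1, Zic2 and Zic5 drop between day 2 and day 2.5.

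Per kilobase of exon, Zic2 ranked first in every group, at 18.4 RPKM in wt on day 0 and 35.7 RPKM in wt on day 2, and Foxd3 ranked last. In wt on day 0 the order was Zic2, Otx2, Zic5, Pou3f1 and Foxd3, and neighbours in this order overlapped between libraries except for Otx2 and Zic5. On day 2 Zic5 stood second at 18.5 RPKM in wt, ahead of Otx2 at 15.6 RPKM and Pou3f1 at 14.3 RPKM, with overlapping libraries for both pairs of neighbours. By day 2.5 the order was Zic2, Zic5, Pou3f1, Otx2 and Foxd3 in both genotypes, and it was the same on day 3. Only Pou3f1 and Otx2 overlapped on day 3 among neighbours, in wt and in het alike, which placed the Zic genes apart from the other factors late in the series.

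In the first step, from LIF to N2B27 with bFGF, Zic2, Zic5 and Pou3f1 rose and Foxd3 fell in both genotypes. The 5 factors thus did not change as 1 set. In wt, 3 of the 5 factors rose and 1 fell by the edgeR quasi-likelihood test at a Benjamini-Hochberg adjusted p under 0.05, against 22.4% of all genes called higher and 21.9% called lower. In het, 4 rose and 1 fell, against 28% higher and 28.1% lower. The log2 fold change of Zic2 was 0.96 in wt (SE 0.15, edgeR adjusted p 0.000139) and 1.03 in het (SE 0.09, edgeR adjusted p 2.15e-07), and that of Zic5 was 0.79 and 0.88 (SE 0.13 and 0.08). Zic2 and Zic5 were higher on day 2 in each of the 6 lines. Foxd3 changed by -3.05 in wt (SE 0.51) and -2.59 in het (SE 0.35) on the log2 scale, with edgeR adjusted p-values of 0.000241 and 1.46e-05, and was lower in each of the 6 lines. With lines left out in turn, its change ran from -4.42 to -2.40 in wt and from -3.30 to -2.16 in het.

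Pou3f1 rose by 0.51 in wt (SE 0.16, edgeR adjusted p 0.0164) and 0.58 in het (SE 0.14, edgeR adjusted p 0.0019) on the log2 scale, and by 0.14 to 0.88 within lines of wt. Its wt call was lost without wt line 2 (log2 fold change 0.30, edgeR adjusted p 0.203) and without wt line 3 (0.50, edgeR adjusted p 0.119). For Otx2 the log2 fold change was 0.13 in wt (SE 0.16, edgeR adjusted p 0.546), where 1 line was higher and 2 were lower, and 0.38 in het (SE 0.11, edgeR adjusted p 0.00744), where 3 of 3 lines were higher. The het call of Otx2 was lost in a joint fit of the 24 libraries (0.37, edgeR adjusted p 0.276). For none of the 5 was the step called different between genotypes by the edgeR interaction test, which called 0 of 16387 genes (0%), 1034 of them having p under 0.05 before adjustment. The interaction for Otx2 was 0.26 (SE 0.20, edgeR adjusted p 0.861).

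Other genes of the lists moved in the same step. A listed gene near 0 on 1 of the days compared, here and in the later steps, could enter the test through the other day alone, and its direction was then set by the filter. All 14 naive pluripotency genes tested fell in both genotypes, with Nr0b1, a nuclear receptor of naive cells, at -4.90 in wt and -4.93 in het, and Klf4, a naive Krüppel-like factor, at -4.06 and -4.98 (log2 fold changes). Of 17 other formative and primed genes, 6 rose and 5 fell in both genotypes. The largest rises were those of Sox3, a SoxB1 factor of epiblast and neural plate (1.49 in wt and 1.81 in het), and Tead2, a TEAD-family factor (1.36 and 1.45), and the largest falls those of Nodal, a TGF-beta family ligand (-2.03 and -1.43), and Tcf7l1, a repressor of Wnt targets (-1.01 and -1.22). Of the anterior neural genes, 3 rose and 1 fell in both genotypes, with rises of Sox1, an early neural factor (2.94 and 3.26), and Irx3, a homeobox gene (2.05 and 1.54), and a fall of Hesx1, an anterior homeobox gene (-2.23 and -2.97). Of 16 endoderm markers tested, 12 rose in each genotype, led by the basement membrane genes Col4a1 (2.11 and 2.17) and Lama1 (2.18 and 1.95), and the summed level of the list went to 9191 to 18814 CPM in wt and 5771 to 7955 CPM in het on day 2. Whether those cells had a part in the factors' levels was not tested.

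**Figure D2:**
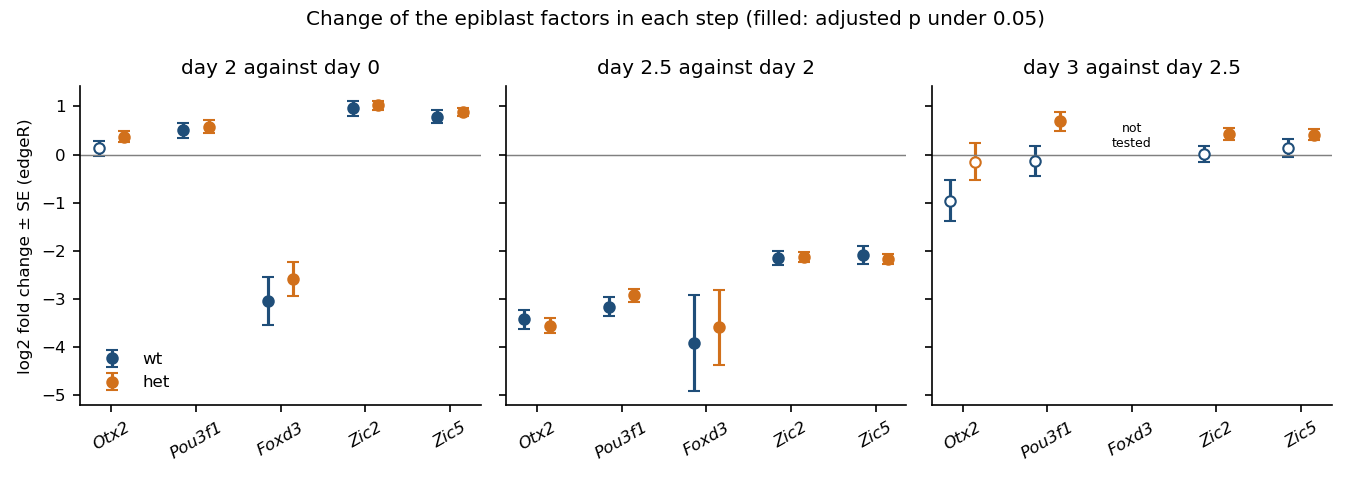
Fitted log2 fold change of each factor (vertical axis, ± SE) in the 3 steps of the series, for wt (blue) and het (orange). Filled points have an edgeR adjusted p under 0.05, and in the middle panel the points of Otx2, Pou3f1, Zic2 and Zic5 lie between -3.56 and -2.09. The Foxd3 points there are fitted values at counts near 0 and give no fold.

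Wnt activation was followed within 12 h by a fall of Otx2, Pou3f1, Zic2 and Zic5 in both genotypes. Every day 2.5 library came from treated cells, so the treatment and 12 h of further culture cannot be told apart. In wt, these 4 of 4 fell by edgeR, against 14.5% of all genes called lower and 14.6% called higher, and in het 4 of 4 fell, against 22.9% lower and 21.8% higher. Their median log2 fold change was -2.66 in wt and -2.55 in het, and the median over all genes tested was 0.00 in wt and 0.01 in het. The fall was seen in 6 of 6 lines for each of the 4. Foxd3 is left out of these counts, because it entered the test through its day 2 counts alone and its direction was set by the filter.

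The factors fell by unequal amounts. Otx2 changed by -3.43 in wt (SE 0.20, edgeR adjusted p 1.4e-07) and by -3.56 in het (SE 0.16, edgeR adjusted p 1.39e-09), which left 9.15% and 8.57% of its day 2 level. Pou3f1 changed by -3.16 (SE 0.20) and -2.93 (SE 0.14), leaving 11% in wt and 13.3% in het. Zic2 changed by -2.15 (SE 0.15) and -2.13 (SE 0.10) and kept 22.7% and 23.1%, and Zic5 by -2.09 (SE 0.18) and -2.17 (SE 0.10), keeping 23.9% and 22.5%. In single lines the change of Otx2 ran from -3.71 to -3.01 and that of Zic2 from -2.34 to -1.95, so the lines of these genes did not overlap; the difference between genes was not tested. Foxd3 counts summed over the 3 lines went from 122 to 6 in wt and from 92 to 9 in het. Its day 2.5 means were under the level of 3 counts per library in wt and about at it in het, so no fold is given, and its calls as lower were lost without wt line 2 (edgeR adjusted p 0.175) or without het line 1 (edgeR adjusted p 0.0588).

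The edgeR interaction test called no difference in the fall between genotypes for any of the factors, with 0 of 16569 genes called (0%) and 850 having p under 0.05 before adjustment. The interaction was -0.13 for Otx2 (SE 0.25), 0.24 for Pou3f1 (SE 0.23), 0.03 for Zic2 (SE 0.17) and -0.07 for Zic5 (SE 0.20).

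In the same 12 h, 13 caudal epiblast and primitive streak genes were called higher in both genotypes. Several of them, Sp5 and Evx1 included, were at or near 0 on day 2 and entered the test through their day 2.5 counts, so that the filter fixed their direction and the count is a description. Sp5, a Wnt target, went from 0 counts in each day 2 library to 47.5 CPM in wt and 47.4 CPM in het, and Evx1, a homeobox gene of the streak, from a mean of 0 and 0.100 CPM to 30.5 and 28.8 CPM. Of the other formative and primed genes, 10 fell and 2 rose in both genotypes. Those with the largest falls were Foxp1, a forkhead factor (-2.31 in wt and -2.19 in het), and Fgf5, a ligand used as a marker of primed epiblast (-1.80 and -1.97), and those that rose were Cdh2, or N-cadherin (2.17 and 2.36), and Etv4, an ETS factor downstream of FGF (1.61 and 1.26). The neural genes Pax6 (-4.28 and -4.55) and Sox1 (-3.57 and -2.93) fell with the factors. Among naive genes, Fgf4, an FGF ligand, fell (-4.59 and -5.27) and Tbx3, a T-box factor, rose (1.55 and 2.28). Of the 16 endoderm markers tested, 1 was lower in wt and 10 were higher in het in this step, and of the neural crest markers Msx1 rose (2.65 and 1.65).

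**Figure D3:**
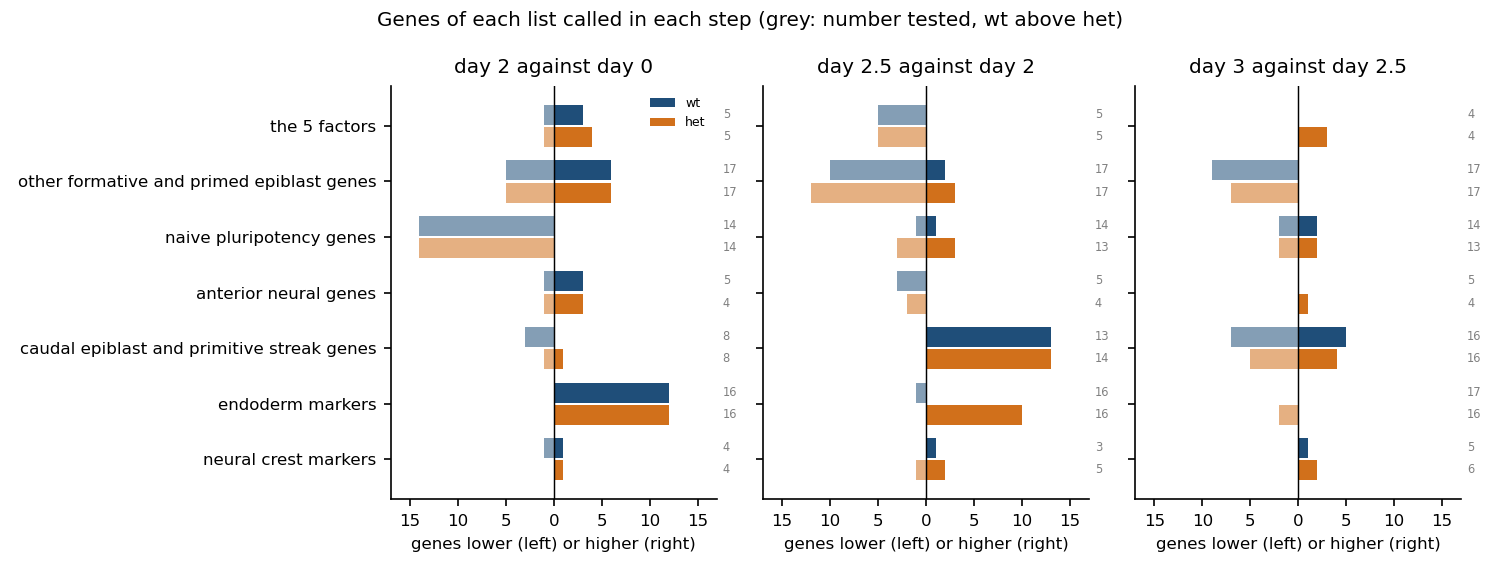
Number of genes of each list called higher (right of 0) or lower (left of 0) in each step by edgeR, in wt (blue) and het (orange); grey figures give the genes tested. The 5 factors, Foxd3 through its day 2 counts alone, and the other formative genes extend to the left in the middle panel, where the caudal epiblast genes extend to the right with 13 genes in each genotype, several of which entered that test through day 2.5 alone.

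From day 2.5 to day 3 the changes were smaller. In wt, 0 of the 4 factors tested were called by edgeR, against 8.99% of genes called higher and 10.1% lower. In het, Pou3f1, Zic2 and Zic5 rose, against 13.8% higher and 16% lower. The het log2 fold changes were 0.69 for Pou3f1 (SE 0.19, edgeR adjusted p 0.0176), 0.43 for Zic2 (SE 0.12, edgeR adjusted p 0.0173) and 0.41 for Zic5 (SE 0.11, edgeR adjusted p 0.0170), and 3 of 3 het lines were higher for each. In wt they were -0.14 (SE 0.31), 0.01 (SE 0.17) and 0.14 (SE 0.19), with lines in both directions.

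These het calls were lost when single lines were left out. Without het line 2, the line with the highest level of each of these genes on day 3, the changes were 0.61 for Pou3f1, 0.29 for Zic2 and 0.34 for Zic5, with edgeR adjusted p-values of 0.0852, 0.166 and 0.114. Without het line 3 they were 0.64, 0.51 and 0.44, with edgeR adjusted p-values of 0.137, 0.069 and 0.092. The genotypes were not shown to differ in this step, since the edgeR interaction was 0.84 for Pou3f1 (SE 0.36, unadjusted p 0.0342, adjusted p 0.997), 0.42 for Zic2 (SE 0.21) and 0.28 for Zic5 (SE 0.22), and 0 of 16486 genes were called (0%), 630 having p under 0.05 before adjustment.

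Otx2 changed by -0.96 in wt (SE 0.42, edgeR adjusted p 0.134), lower in 3 of 3 lines. With the line as a block, which pairs the libraries of a line, the value was -1.06 with an edgeR adjusted p of 0.0251, and without wt line 1 it was -1.38 with an edgeR adjusted p of 0.0475. In het, Otx2 changed by -0.15 (SE 0.38, edgeR adjusted p 0.809), with line 2 higher and the other lines lower. The interaction for Otx2 was 0.82 (SE 0.62, edgeR adjusted p 0.997), and it ran from 0.16 to 1.26 with lines left out in turn. Foxd3 was not tested, because its counts on both days were under the filter.

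In this last step 0 of the other formative and primed genes rose in both genotypes and 7 fell, with the largest falls in the kinase gene Pim2 (-2.94 in wt and -1.91 in het) and in Utf1, a chromatin factor of pluripotent cells (-1.59 and -0.90). Fgf4, which had fallen in both earlier steps, rose (2.18 and 2.41) with Tfcp2l1, a naive factor (0.80 and 0.69). The paraxial mesoderm genes Msgn1 (4.03 and 5.48) and Tbx6 (4.17 and 2.71) rose, and the early streak genes Eomes (-1.71 and -1.78) and Mixl1 (-1.38 and -1.82) fell. On day 3 Zic2 and Zic5 were at 22.7% and 25.9% of their day 2 level in wt and at 31.6% and 30.4% in het, whereas Otx2 was at 4.7% and 7.86%.

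The genotypes were then set against each other day by day. By edgeR, 0 of the 5 factors were called on day 0 (0% of all genes called), 0 of 5 on day 2 (0.551%), 0 of the 4 tested on day 2.5 (0%) and 0 of the 4 tested on day 3 (0.00638%). Without adjustment, p was under 0.05 for 1649 of 15108 genes on day 0, 1576 of 15414 on day 2, 822 of 15588 on day 2.5 and 1432 of 15686 on day 3. The het and wt libraries did not overlap for Foxd3 on day 0, when 16.7% of all genes did not overlap, for 0 factors on day 2 (16%) and 0 on day 2.5 (11.4%), and for Pou3f1, Zic2 and Zic5 on day 3 (13.9%).

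On day 0, Foxd3 had the largest log2 fold change of the 5 between het and wt, -0.63 (SE 0.21, unadjusted p 0.0107, edgeR adjusted p 0.369), and adjusted p-values ran from 0.059 to 0.905 over its 11 alternatives. The difference was -0.35 without wt line 1, which had the highest count and is the line that stood apart on chromosome 8, and -0.78 without wt line 2. The summed level of the endoderm markers did not overlap between genotypes on that day either. Of these markers, 15 of the 16 tested had lower means in het, against 7596 of 15108 genes tested. Their log2 fold changes had a median of -0.80, and 0 were called. Their part in the Foxd3 value was not tested. The other 4 factors ranged from -0.13 to 0.03 on that day. On day 2 the values were 0.15 for Otx2 (SE 0.14), -0.05 for Pou3f1 (SE 0.14), -0.17 for Foxd3 (SE 0.70), 0.05 for Zic2 (SE 0.10) and 0.12 for Zic5 (SE 0.12), and on day 2.5 those of the 4 factors tested ranged from 0.06 to 0.22.

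On day 3 the 4 factors tested had higher means in het. The log2 fold change was 1.07 for Pou3f1 (SE 0.27, unadjusted p 0.00238, edgeR adjusted p 0.302), 0.89 for Otx2 (SE 0.51, edgeR adjusted p 0.643), 0.52 for Zic2 (SE 0.15, unadjusted p 0.00531, edgeR adjusted p 0.347) and 0.36 for Zic5 (SE 0.14, unadjusted p 0.0270, edgeR adjusted p 0.497). Their median was 0.70, against 0.00 over all 15686 genes tested. Pou3f1 passed the threshold under 3 alternatives, with adjusted p-values of 0.0058 when genes with at least 1 count were kept, 0.0319 by the DESeq2 Wald test and 0.0415 in a joint edgeR fit of the 24 libraries, within a range of 0.0058 to 0.814 over its 11 alternatives. Without het line 2 the values were 0.92 for Pou3f1, 0.14 for Otx2, 0.42 for Zic2 and 0.26 for Zic5, and over all lines left out in turn the Otx2 value ran from 0.14 to 1.36.

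Markers of other cells were read in the same libraries. The 16 endoderm markers tested had lower means in het on day 3, with a median log2 fold change of -0.70 and 0 called, and their list of 19 summed to 6177 to 12207 CPM in wt and 4889 to 8003 CPM in het, which overlapped. On day 2, 13 of 16 were called lower in het, while 0 of the 5 factors were called. In that list Apoa1, Afp and Ttr had at most 22 counts in any library, whereas Lama1 reached 76242. The other formative and primed genes summed to 692 to 941 CPM in wt and 979 to 1051 CPM in het on day 3, without overlap. Of these genes, 14 of 17 had higher means in het with 0 called, against 7824 of 15686 genes tested. The sums of this list did not overlap on day 2 either, at 2809 to 2962 CPM in wt and 3068 to 3205 CPM in het. Abundant genes weigh most in such sums, as Dnmt3b reached 22775 counts in a library and Fgf5 at most 279. The neural crest markers, among which Sox10 had at most 17 counts and Pax3 at most 21, summed to 29.5 to 34.7 CPM in wt and 28.4 to 39.9 CPM in het on day 3. The part of these cells in the day 3 values was not tested.

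**Figure D4:**
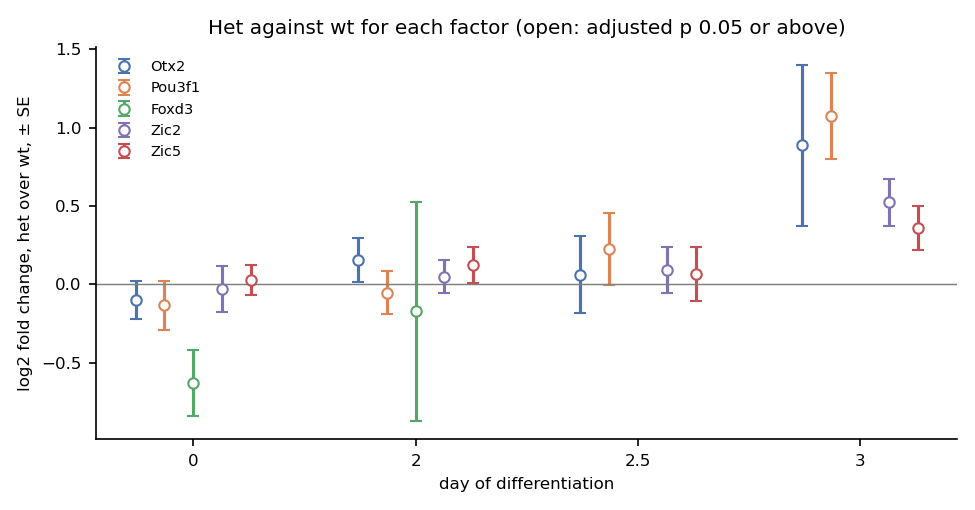
Log2 fold change of het over wt (vertical axis, ± SE) for each factor on each day. All points are open, since 0 had an edgeR adjusted p under 0.05; Foxd3 was not tested on days 2.5 and 3, and the 4 points of day 3 lie between 0.36 and 1.07.

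Several relatives of the factors had low counts in all libraries. Zic1, a neural and mesodermal relative, had 0 to 58 counts, with its highest on day 2.5, and Zic4 had at most 7. Otx1, Pou3f2, Pou3f3, Pou3f4, Foxd1, Foxd2 and Foxd4 had at most 14, 21, 7, 15, 24, 16 and 4 counts, and Crx had 0 in all 24 libraries.

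Within a library, Zic2 and Zic5 counts stayed close to each other across the series. The ratio of Zic2 to Zic5 counts ran from 0.772 to 1.27 over 24 libraries with a median of 1.07, while Zic2 itself ranged from 18.7 to 113 CPM. As a description over 24 libraries, which share day and line, the root mean square difference of centred log2 CPM between Zic2 and Zic5 was 0.178, smaller than that between either gene and any of 12452 other genes whose counts averaged 50 or more. The nearest of those were Chd9 (0.276), G2e3 (0.276) and Ndrg2 (0.278) for Zic2, and Gfpt2 (0.268), G2e3 (0.271) and Sinhcaf (0.284) for Zic5.

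**Figure D5:**
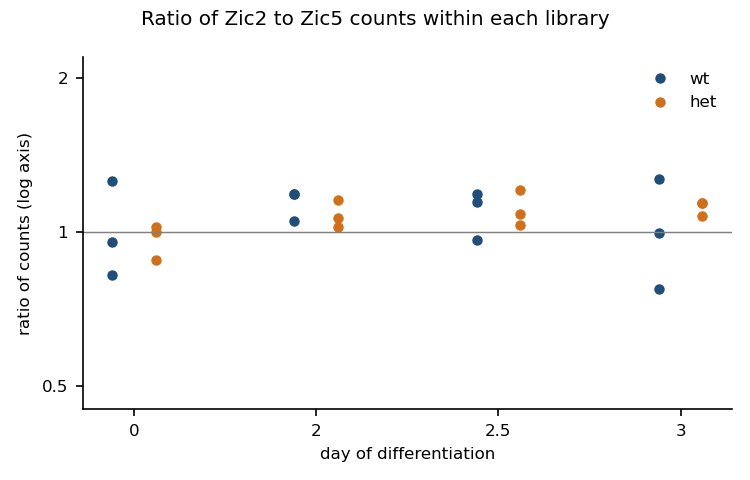
Ratio of counts within each library (vertical axis, log scale) of Zic2 to Zic5 by day, in wt (blue) and het (orange), with 1 point per library. The 24 points stay between 0.772 and 1.27.

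The other factors had other nearest genes by the same measure. For Otx2, whose own SD over the 24 libraries was 1.97 in log2 CPM, they were Myrf (0.54), Pla2g10 (0.64) and Fgf5 (0.75), the primed epiblast ligand. For Pou3f1 (SD 1.41) they were the forkhead genes Foxp1 (0.39) and Foxi3 (0.46) and the protease gene Mmp25 (0.49). For Foxd3 (SD 2.73), a gene with low counts and thus a less exact pattern, they were Spp1 (0.91), Ankrd35 (0.99) and Eras (1.05), a Ras-family gene of mESCs. Among the factors themselves, Otx2 and Pou3f1 differed by 0.77, Pou3f1 and Zic5 by 0.62, and Foxd3 and Zic2 by 2.24, the last being the pair furthest apart.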

How the data were processed

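RNA was sequenced as 75-base single-end reads. Per the labels and the methods of the study, the authors trimmed reads with Trim Galore 0.4.4, aligned them with HISAT2 2.0.5 to GRCm38.p6 and deposited raw counts per gene from SeqMonk, with no normalization. The annotation release, the handling of overlapping genes and the strandedness of each library are not given in the sources used here. A deposited table of log2 RPKM values, scaled by the authors to library size and gene length, was used only to check the scale of Foxd3, and a like table of Hox genes was not used. The authors' 8 deposited group mean columns, treated as a score with no replicate spread, were not used. Per-sample columns with no matching label numbered 0.

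The 5 members and the gene lists were chosen with earlier results of these data known. Counts were analysed with R 4.3.3 and edgeR 4.0.16, using TMM factors, filterByExpr and the quasi-likelihood test on the groups compared, with Benjamini-Hochberg adjustment over all genes tested and a threshold of 0.05. Log2 CPM used a prior count of 2. Each list named the 2 genes per direction and step with the largest change among those called in both genotypes whose mean was at least 50 counts in a group, and relatives of a member could be named. A further gene of these lists is not reported here. For each member the 3 genes nearest in centred log2 CPM were named. Steps were fitted without a block, and a fit with the line as a block was an alternative. Libraries of a line are paired because the labels give the line, and residuals of paired libraries correlated at -0.061 to 0.299. Lines come from separate blastocysts, so p-values of fits within a single day measure the spread between lines. Steps and interactions fitted without the block, and the fit of all 24 libraries, took the libraries of a line as independent. Alternatives were DESeq2 1.42.0 size factors, library totals alone, a filter of at least 1 count, the DESeq2 Wald test, 1 fit of all 24 libraries and leaving out each line. The procedure was tested on simulated data. Coordinates and exon lengths are from GENCODE annotation on GRCm38, and promoter windows from RefSeq, with 6 windows for 3 of the 5 members. Figures were drawn with matplotlib 3.10.9.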

Additional observations from a re-analysis of the deposited data

How the results depend on the processing

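For Otx2, Pou3f1, Zic2 and Zic5, the 72 alternative values of the fall at day 2.5 were all negative and 72 kept the call. Foxd3, whose direction the filter fixed in that step, lost its call without wt line 2 or het line 1. With the line as a replicate block, the day 2.5 to day 3 step in wt called 4687 genes and 1 member (Otx2), the interaction of the first step called 2 genes, and no other member call changed. With a filter of at least 1 count, het against wt called 369, 384, 87 and 274 genes on days 0, 2, 2.5 and 3, with 1 member (Pou3f1) on day 3, and the interactions called 58, 33 and 23 in order of step. The DESeq2 Wald test called 82, 233, 3 and 116 genes, with Pou3f1 as 1 member on day 3, and 10 in the first interaction. The fit of 24 libraries called 1, 23, 1 and 15 genes, with 1 member on day 3 (Pou3f1) and 1 in the last wt step (Otx2). The cause of these differences was not tested. Library totals alone moved the mean level of Zic5 in het to 51.6 CPM on day 0 and 22.9 CPM on day 2.5.

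Leaving out lines in turn, het against wt called 0 to 60 genes on day 0, 0 to 211 on day 2, 0 to 3 on day 2.5 and 0 to 93 on day 3. The wt steps called 4152 to 6363, 2249 to 3875 and 29 to 3098 genes, the last lowest without wt line 2 and with 0 to 1 members, and the last het step 2385 to 3032 genes with 0 to 3 members. The later interactions called 0 to 2 and 0 to 1 genes. Values that changed sign when a line was left out were all short of the threshold, and such fits hold fewer samples. For het against wt on day 0 these were Otx2 (-0.18 to 0.035), Pou3f1 (-0.24 to 0.017), Zic2 (-0.13 to 0.16) and Zic5 (-0.011 to 0.061). On day 2 they were Pou3f1 (-0.13 to 0.10), Foxd3 (-0.79 to 1.06) and Zic2 (-0.036 to 0.11), and on day 2.5 Otx2 (-0.039 to 0.19) and Zic5 (-0.035 to 0.25). In the steps they were Otx2 from day 0 to day 2 in wt (-0.082 to 0.27), Pou3f1 (-0.47 to 0.16), Zic2 (-0.12 to 0.23) and Zic5 (-0.052 to 0.29) from day 2.5 to day 3 in wt, and Otx2 in that step in het (-0.82 to 0.17). In the first interaction they were Pou3f1 (-0.14 to 0.26), Foxd3 (-0.25 to 1.81), Zic2 (-0.063 to 0.15) and Zic5 (-0.072 to 0.19). In the second they were Otx2 (-0.23 to 0.059), Pou3f1 (-0.016 to 0.44), Foxd3 (-1.22 to 2.30), Zic2 (-0.064 to 0.093) and Zic5 (-0.16 to 0.028). Foxd3 had at most 5 counts in any library after day 2, too few for a test between genotypes on those days.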
